A study of Mus musculus with 4 samples.

Results

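The germline genes Dazl, Dnd1, Nanos2, Nanos3, Ddx4, Mael, Piwil2, Tdrd1, Sycp3 and Stra8 were followed by symbol, which are 10 of the 31053 genes in the count tables, and they were chosen for known roles in RNA binding, piRNA biology or meiosis. The series compared XY gonadal cells of mouse embryos with gonadal cells made from embryonic stem cells (ESCs) by single-cell RNA-seq. Each condition had 1 library, so no p-value is given for a difference between conditions, and every interval below is an exact 95% interval that covers counting error only. Unique molecular identifiers (UMIs), which count captured transcripts, were summed over a group of cells and given per 1000000 UMIs of that group (CPM).

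The embryonic libraries were gonads of ICR mice at embryonic days E10.5, E11.5 and E12.5. The E10.5 dissection still held dorsal mesenchyme, whereas at the later stages the mesonephros had been cut away. The ESC-derived library was taken at day 6 of induction (D6) from the C57BL/6J line N271S9C, whose transgenes are labelled Nr5a1-hCD27a and Sox9-2A-CGFP, after magnetic enrichment for Nr5a1-positive cells. By the methods, the parental ESCs came from embryos of a cross of 129X1/SvJ females with Nr5a1-hCD271 males on C57BL/6J, which is not the strain that the label alone gives. The D6 cells were prepared with the version 3 kit and the embryonic cells with version 2, so kit, strain and origin cannot be told apart between D6 and the embryos.

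Germ cells were taken as cells with a UMI of at least 2 of the 3 genes Pou5f1, Dppa3 and Nanog, among the cells inside the gene and mitochondrial limits of the study for that library. This gave 187 germ cells of 2101 cells at E11.5 (8.90%) and 450 of 2764 at E12.5 (16.3%), but only 9 of 3837 at E10.5 and 2 of 2285 at D6. The cells outside the rule are called other cells. Germ cell markers that the rule did not use were present: Dppa5a was detected in 95.7% of germ cells at E11.5 and 99.1% at E12.5, with Dppa4 in 83.4% and 98.2%. Markers of supporting cells summed to 85.8 CPM in germ cells against 825 CPM in other cells at E11.5, and to 22.4 against 1641 CPM at E12.5, with all 6 markers lower in germ cells at both stages. At least 2 of the 6 were detected in 20 of the germ cells of E11.5 and 18 of those of E12.5. Endothelial markers summed to 109 CPM in germ cells and 122 CPM in other cells at E11.5, and to 81.2 and 78.5 CPM at E12.5. Of these 6 markers, 5 were lower in germ cells at both stages. At least 2 of them were detected in 38 germ cells of E11.5 and 84 of E12.5. The 5 Y-linked genes Ddx3y, Eif2s3y, Kdm5d, Uty and Uba1y had a UMI in 86.6% of germ cells at E11.5 and 96.9% at E12.5, while Xist summed to 24 UMIs over 17 germ cells at E11.5 and to 4 UMIs over 4 germ cells at E12.5.

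The libraries held 11906360 to 34173977 UMIs in the retained cells, with a median of 17549 UMIs per germ cell at E11.5 and 18636.5 at E12.5. The spread of depth differed more than the median: the shallowest germ cell had 1024 UMIs at E11.5 and 10140 at E12.5, with lower limits of 500 and 2000 genes set by the study. Shares of cells were therefore also computed with each cell thinned to 5000 UMIs, a step that dropped 27 of the 187 germ cells of E11.5 and none at E12.5. The E11.5 and E12.5 libraries shared 7 cell barcodes, and E10.5 shared 8 and 15 with them, none between germ cells. A further 17 cells at E11.5 and 57 at E12.5 met the germ cell rule but had more genes than the upper limit and were left out.

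Primordial germ cells reach the gonad soon after its primordium forms and switch on a set of germline genes there, among them genes for RNA-binding proteins that control which transcripts are translated or destroyed. Part of the same set belongs to the piRNA pathway, in which small RNAs bound to PIWI proteins silence transposons, and part to the machinery of meiosis. In XX embryos these cells enter meiosis soon afterwards, whereas in XY embryos the testis holds them back and they arrest as prospermatogonia.

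Most of the 10 genes were higher in E12.5 than in E11.5 germ cells. Of the 7 with at least 50 UMIs, 6 had a ratio above 1, against 51.8% of all 9035 genes with as many UMIs. The interval lay wholly above 1 for 5 of the 7 and wholly below 1 for 1. Over all genes these shares were 21.5% and 16.5%. Dazl was 2.22-fold higher (1.15 on the log2 scale), and Sycp3, Mael and Ddx4 stood 1.93-fold, 1.81-fold and 1.74-fold higher. Dnd1 was 1.19-fold higher, Piwil2 had a ratio of 1.22 whose interval held 1, and Nanos3 was the one gene that was lower, at 0.728 of its E11.5 level. Stra8 and Nanos2 had no UMI in the 187 germ cells of E11.5 and were present in 20 and 12 germ cells of E12.5. Of the 3 genes of the germ cell rule, Dppa3 was 2.25-fold higher at E12.5 (2.17 to 2.34). Pou5f1 stood at 0.984 and Nanog at 0.833 of their E11.5 levels, with intervals that held 1. The effect of the Dppa3 difference on which cells met the rule was not tested.

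The regions upstream of Ddx4, Mael and Sycp3 are shown because they held both motifs searched, a choice made after the matches were seen, and that of Dazl because it had the largest ratio of the 7 genes with at least 50 UMIs. Each is the 250 bases before the start site in RefSeq (assembly GRCm38.p6, the build of the count tables), read 5′ to 3′ on the strand of the gene. Capitals mark the letters CACGTG, an E-box, and TCCCGC or its reverse complement GCGGGA, the core of E2F sites. The sequences lie at chr13:112652311-112652560 for Ddx4 and chr1:166238745-166238994 for Mael, both on the minus strand, at chr10:88459337-88459586 on the plus strand for Sycp3, and at chr17:50293621-50293870 on the minus strand for Dazl.
Ddx4: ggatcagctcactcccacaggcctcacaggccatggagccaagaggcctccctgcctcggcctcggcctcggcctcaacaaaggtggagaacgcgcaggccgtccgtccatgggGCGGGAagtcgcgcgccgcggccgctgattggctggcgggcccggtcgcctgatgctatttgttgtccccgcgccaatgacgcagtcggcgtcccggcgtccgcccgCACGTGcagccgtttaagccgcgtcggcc
Mael: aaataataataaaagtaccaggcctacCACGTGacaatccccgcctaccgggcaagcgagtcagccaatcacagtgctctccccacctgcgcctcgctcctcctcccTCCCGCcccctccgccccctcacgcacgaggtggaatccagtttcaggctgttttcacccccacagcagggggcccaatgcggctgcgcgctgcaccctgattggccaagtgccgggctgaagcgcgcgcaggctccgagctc
Sycp3: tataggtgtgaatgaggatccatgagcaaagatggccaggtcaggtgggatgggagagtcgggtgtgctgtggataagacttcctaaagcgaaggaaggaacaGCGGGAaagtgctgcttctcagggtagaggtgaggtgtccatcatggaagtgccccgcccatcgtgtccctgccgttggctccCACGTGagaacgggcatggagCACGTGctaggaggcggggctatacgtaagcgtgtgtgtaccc
Dazl: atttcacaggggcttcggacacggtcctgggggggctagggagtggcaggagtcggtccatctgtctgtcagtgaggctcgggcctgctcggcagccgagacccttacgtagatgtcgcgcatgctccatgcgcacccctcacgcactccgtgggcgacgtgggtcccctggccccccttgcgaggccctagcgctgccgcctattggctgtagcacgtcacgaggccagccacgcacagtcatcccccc

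Upstream sequence was found for 8 of the 10 genes, all but Dnd1 and Piwil2. The E-box letters, searched on both strands, were present upstream of Ddx4, Mael, Sycp3 and Tdrd1 (in 2 of its 3 windows), against 6.02% of all 32851 upstream regions of the same length. Both motifs together were present upstream of Ddx4, Mael and Sycp3, against 1.45% of all regions. The E2F letters, with or without the E-box, were present upstream of the same genes, against 16.9% of all regions. In CG dinucleotides the regions differed widely, with 31 upstream of Ddx4, 20 of Dazl, 18 of Mael and 12 of Sycp3. The 3 windows of Tdrd1 held 11, 22 and 3, the last without the E-box letters. Stra8 had 5, Nanos3 3 and Nanos2 none, beside a median of 6 over all regions. Both motifs contain a CG, and their shares among regions of like CG content were not computed. The counts above are of genes, Tdrd1 with 3 regions, while the shares are of regions. The windows follow RefSeq start sites, which differ from the ends of the gene spans given below. Those of Stra8 and Nanos3 lay inside these spans, as did a window of Tdrd1. Those of Nanos2, Ddx4, Dazl, Mael and Sycp3, and another window of Tdrd1, overlapped theirs in part. A match of letters is a description of the window and not a bound site.

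**Figure D1:**
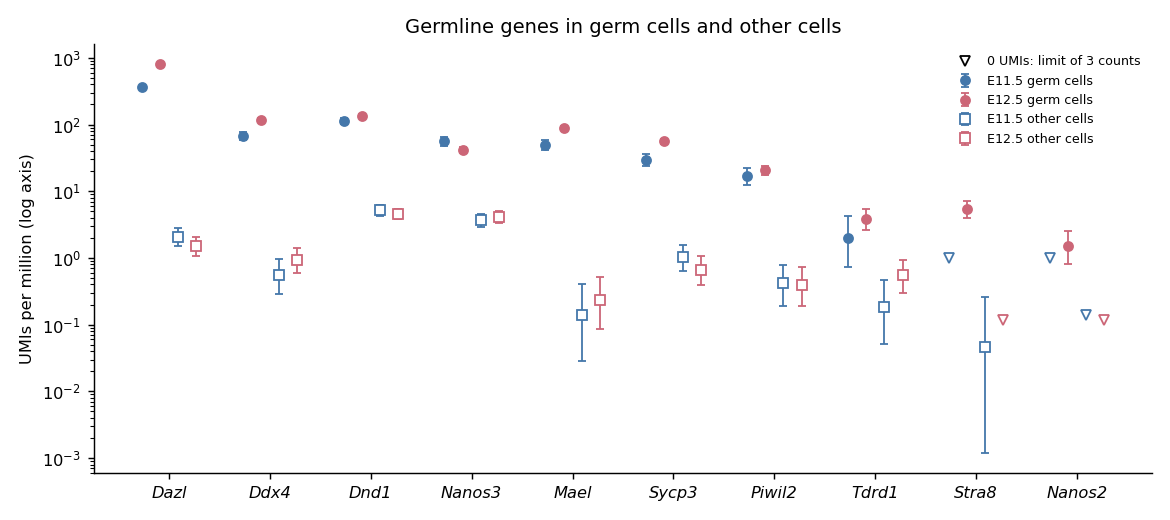
Summed level of the 10 germline genes in germ cells (filled circles) and other cells (open squares) of E11.5 (blue) and E12.5 (red), in CPM on a log axis, with exact 95% counting intervals. Open triangles mark groups with 0 UMIs at the level that 3 counts would give; the germ cell level of Dazl lies at 362 and 804 CPM, above all other genes, and every gene with a UMI in germ cells lies above its level in other cells.

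All 7 genes with at least 50 UMIs over the compared cells, namely Dazl, Ddx4, Dnd1, Nanos3, Mael, Sycp3 and Piwil2, were at least 4-fold higher in germ cells than in other cells at both stages. Of all genes with as many UMIs, 4.06% of 11688 passed that ratio at E11.5 and 5.61% of 12205 at E12.5. The 7 were chosen for known germline roles and with earlier results of these data known. Their comparison with all genes is therefore a description and not a test. At E11.5, Piwil2, Mael and Ddx4 had 51, 150 and 204 UMIs in germ cells and 9, 3 and 12 in other cells. These 3 thus reached the minimum of 50 through germ cells. So did Dazl and Sycp3, with 45 and 22 UMIs in other cells at E11.5. At E12.5 the same genes again stayed under 50 in other cells. There Dazl had 39 UMIs, Ddx4 24, Sycp3 17, Piwil2 10 and Mael 6. Dnd1 and Nanos3, at 111 and 80 UMIs in other cells, passed it there as well. The median difference over the 7, on the scale of log2(CPM + 1), was 4.20 at E11.5 and 5.11 at E12.5, against -0.25 and -0.27 over all genes tested. Tdrd1, Stra8 and Nanos2 had fewer UMIs and are described by their counts.

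Between the stages, 1 of the 7 genes passed a ratio of 2 upward, against 2.6% of 9035 genes, and none passed it downward, against 2.89%. The median over the 7, on the log2(CPM + 1) scale, was 0.79, and over all genes 0.02. With cells of a single rule gene counted as germ cells, 4 of the 7 passed, with Ddx4, Mael and Sycp3 beside Dazl, and under scaling by trimmed mean of M-values (TMM) Dazl and Sycp3 passed.

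**Figure D2:**
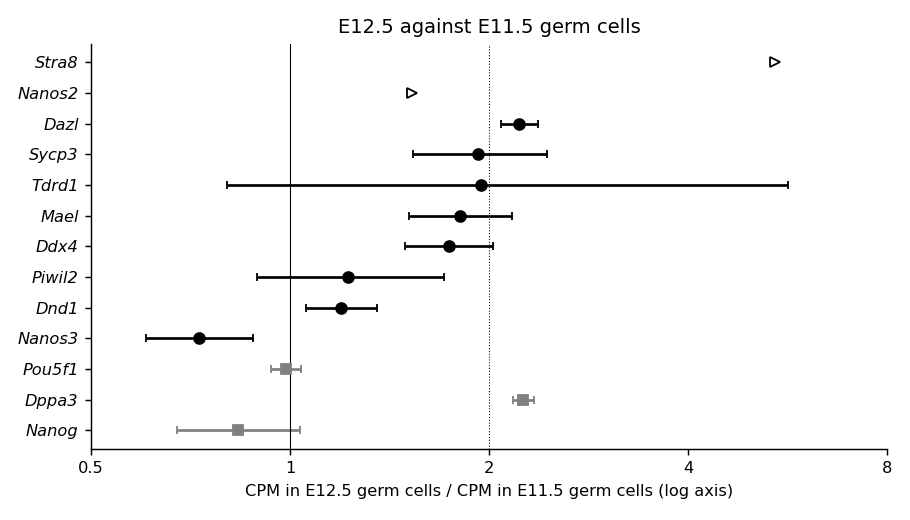
Ratio of the CPM in E12.5 germ cells to that in E11.5 germ cells on a log axis, with exact 95% counting intervals, for the germline genes (black) and for the 3 genes of the germ cell rule (grey). Open arrowheads for Stra8 (5.41) and Nanos2 (1.53) are ratios against 3 counts, drawn without the counting error of E12.5, the solid line marks a ratio of 1 and the dotted line a ratio of 2; the interval of Nanos3 lies below 1 and that of Dazl above 2.

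Dazl encodes an RNA-binding protein that controls translation in germ cells and that germ cells need to take up a gametic fate (chromosome 17, 50279395 to 50293636, minus strand). Gene spans here and below are those of GENCODE M21 on GRCm38. It had 1102 UMIs in germ cells at E11.5, or 362 CPM (341 to 384), and 6932 UMIs at E12.5, or 804 CPM (785 to 823). Among germ cells of at least 5000 UMIs, the level of a single cell ran from 0 through a median of 311 to 1363 CPM at E11.5, and from 0 through 781 to 2430 CPM at E12.5. The cells of both stages overlapped, since the upper quartile at E11.5 was 496 CPM and the 10th percentile at E12.5 was 441 CPM. Dazl was the most widely detected of the 10, in 88.8% of germ cells at E11.5 (83.3% to 92.9%) and 98.9% at E12.5 (97.4% to 99.6%). After thinning, the shares were 80.6% (73.6% to 86.4%) and 96.7% (94.6% to 98.1%). Of the 21 germ cells without Dazl at E11.5, 9 had fewer than 5000 UMIs and 7 held another of the 10 genes. These 21 cells also had lower levels of Pou5f1 (236 against 671 CPM) and Dppa3 (314 against 1115 CPM) than cells with Dazl. At E12.5 the 5 cells without Dazl stood at 170 against 637 CPM for Pou5f1 and 306 against 2413 CPM for Dppa3. Whether all cells without Dazl are germ cells was not tested.

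Dnd1 encodes an RNA-binding protein that shields target transcripts from microRNAs and works with the NANOS proteins, and it is needed for germ cell survival (chromosome 18, 36763671 to 36766214, minus strand). It stood at 112 CPM (101 to 125) at E11.5 and 134 CPM (126 to 142) at E12.5, a ratio of 1.19 (1.06 to 1.35). It was detected in 70.1% and 86.7% of germ cells, and after thinning in 41.2% (33.5% to 49.3%) and 49.1% (44.4% to 53.8%). The thinned intervals overlapped. Its exons overlap those of Wdr55 on the opposite strand.

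Nanos3 encodes a zinc-finger protein that binds RNA and protects migrating and newly arrived germ cells from death (chromosome 8, 84173731 to 84185217, minus strand). It had 172 UMIs at E11.5, or 56.5 CPM (48.4 to 65.7), and 355 at E12.5, or 41.2 CPM (37.0 to 45.7), a ratio of 0.728 (0.605 to 0.879). The share of germ cells with a UMI went from 56.1% to 52.4%, and after thinning from 24.4% (17.9% to 31.8%) to 18.2% (14.8% to 22.1%), so neither pair of shares was separated by its intervals. It had the fourth highest level at E11.5, where its interval overlapped those of Ddx4 above and Mael below, and the sixth highest at E12.5, below Sycp3 at 56.4 CPM (51.5 to 61.6). These orders compare 3′-end counts, which take 1 tag per captured transcript and were not divided by transcript length.

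Nanos2, the male-specific relative of Nanos3 that represses the meiotic programme (chromosome 7, 18987400 to 18988962, plus strand), had no UMI in germ cells of E11.5, so that up to 1.60% of cells could hold one. At E12.5 it had 13 UMIs in 12 of 450 germ cells, or 2.67% (1.39% to 4.61%) and 1.51 CPM (0.803 to 2.58). Its ratio had an exact lower limit of 1.08, and set against 3 counts at E11.5, with no error for the 13 UMIs, the ratio was 1.53. No other cell of E11.5 or E12.5 held a UMI of Nanos2, which allows up to 0.157% of 1914 and 0.130% of 2314 cells. Its exons overlap those of Gm45058 on the opposite strand.

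Ddx4 encodes the mouse Vasa homolog, an RNA helicase of germ granules that works in the piRNA pathway (chromosome 13, 112598333 to 112652475, minus strand). It had 204 UMIs in germ cells of E11.5, or 67.1 CPM (58.2 to 76.9), and 1004 at E12.5, or 116 CPM (109 to 124). The ratio was 1.74 (1.49 to 2.03). A UMI was found in 57.2% of germ cells at E11.5 and 81.8% at E12.5, or after thinning in 30.0% (23.0% to 37.7%) and 39.1% (34.6% to 43.8%). The CPM intervals of the stages were apart, whereas the thinned shares overlapped.

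Mael encodes a component of the nuage that acts in piRNA production and transposon silencing (chromosome 1, 166201201 to 166238747, minus strand). It went from 49.3 CPM (41.7 to 57.9) to 89.1 CPM (82.9 to 95.6), a ratio of 1.81 (1.51 to 2.17). The share of germ cells with a UMI was 39.0% at E11.5 and 72.0% at E12.5, or after thinning 18.1% (12.49% to 24.98%) and 35.6% (31.1% to 40.2%), with intervals apart on both counts. Piwil2, which encodes a PIWI protein that loads piRNAs in fetal and postnatal male germ cells (chromosome 14, 70372477 to 70429383, minus strand), stood at 16.8 CPM (12.48 to 22.04) and 20.5 CPM (17.6 to 23.8). Its ratio of 1.22 (0.892 to 1.71) was not distinguishable from 1 at this depth, and its thinned shares were 7.50% and 6.89%. Tdrd1, a tudor-domain protein that binds PIWI proteins (chromosome 19, 56826209 to 56870012, plus strand), had 6 UMIs in 5 germ cells at E11.5 and 33 UMIs in 32 germ cells at E12.5. These correspond to 1.97 CPM (0.724 to 4.29) and 3.83 CPM (2.63 to 5.37), and the interval of their ratio of 1.94 ran from 0.803 to 5.66.

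Sycp3 encodes a protein of the axial elements along which meiotic chromosomes are organised (chromosome 10, 88459569 to 88473236, plus strand). It had 89 UMIs at E11.5, or 29.3 CPM (23.5 to 36.0), and 486 at E12.5, or 56.4 CPM (51.5 to 61.6), a ratio of 1.93 (1.53 to 2.44). It was detected in 28.3% of germ cells at E11.5 and 63.8% at E12.5, or after thinning in 15.0% (9.85% to 21.5%) and 26.7% (22.6% to 31.0%). Most XY germ cells of E12.5 therefore held Sycp3, at 1 to 5 UMIs per positive cell. Its exons overlap those of Chpt1 on the opposite strand.

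Stra8, which retinoic acid induces at the onset of meiosis (chromosome 6, 34920163 to 34939344, plus strand), had no UMI in germ cells of E11.5 and 46 UMIs in 20 germ cells of E12.5. The E12.5 level was 5.33 CPM (3.91 to 7.11), and 4.44% of germ cells had a UMI (2.74% to 6.78%), while 0 of 187 at E11.5 allows up to 1.60%. Its ratio had an exact lower limit of 4.22, and set against 3 counts at E11.5, with no error for the 46 UMIs, the ratio was 5.41. Stra8 UMIs were unevenly spread: 10 of the 20 cells had 1 UMI, 6 had 2, and 1 cell had 11. Among other cells there was 1 Stra8 UMI at E11.5 and none at E12.5.

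**Figure D3:**
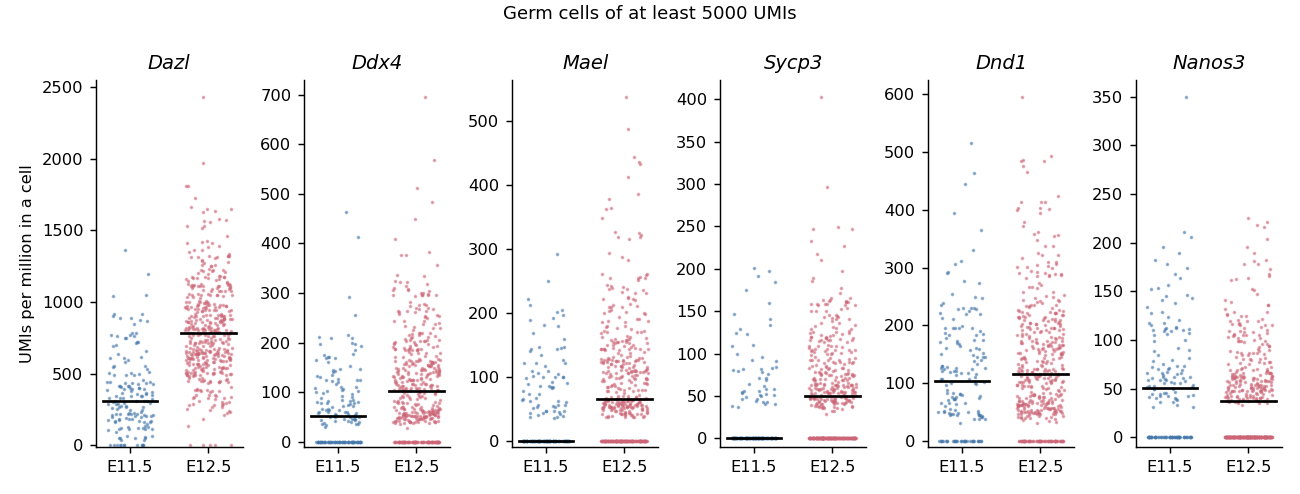
Level of 6 germline genes in single germ cells of at least 5000 UMIs, in CPM of the cell (linear axes, a separate scale for each gene), with 160 cells of E11.5 in blue and 450 cells of E12.5 in red. Black lines mark the median cell, which moved from 311 to 781 CPM for Dazl and from 0 to 50.0 CPM for Sycp3; the gap above 0 is the level of 1 UMI.

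The number of the 10 genes detected in the same germ cell had a median of 4 at E11.5 and 5 at E12.5, with highest counts of 7 and 8. At least 4 were found in 56.1% of germ cells at E11.5 (48.7% to 63.4%) and 88.7% at E12.5 (85.4% to 91.4%). After thinning, the shares were 15.6% (10.4% to 22.2%) and 26.4% (22.4% to 30.8%), intervals that did not overlap, and the medians 2 and 3. Among other cells, none of 1914 at E11.5 and none of 2314 at E12.5 held 4 or more, and 87.3% and 87.1% held none. Germ cells with none of the 10 genes numbered 14 at E11.5, with a median of 7867.5 UMIs and 6 of them under 5000 UMIs, and 3 at E12.5. Whether these are all germ cells was not tested.

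**Figure D4:**
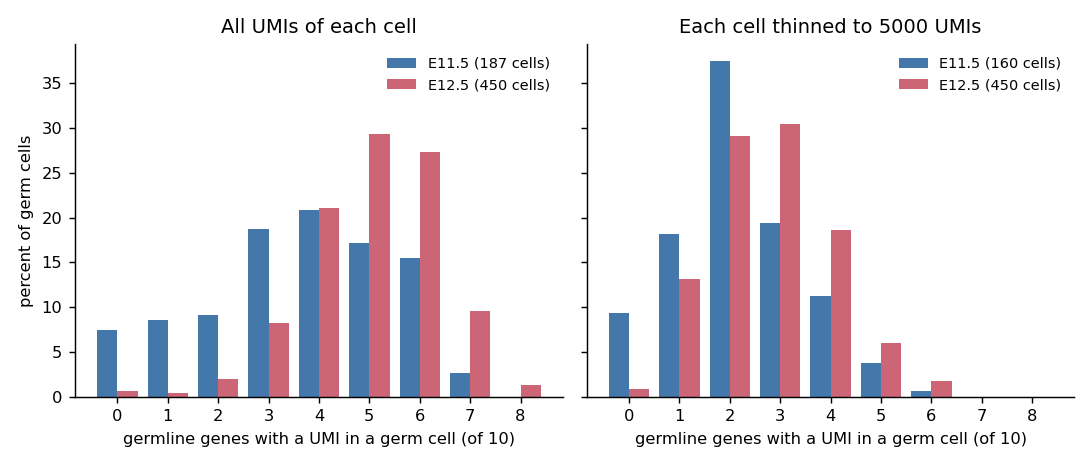
Percent of germ cells (bars, from 0) by the number of the 10 germline genes with a UMI, with all UMIs of each cell (left) and after thinning to 5000 UMIs (right), for E11.5 (blue) and E12.5 (red). The most common count was 4 at E11.5 and 5 at E12.5 with all UMIs, and 2 and 3 after thinning.

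The share of germ cells with both genes of a pair was set beside the product of their shares. Dazl and Ddx4 shared 103 germ cells at E11.5 (55.1%, product 50.8%) and 368 at E12.5 (81.8%, product 80.9%), and after thinning 26.9% (product 24.2%) and 38.2% (product 37.8%). In percentage points, the pair furthest above its product at E11.5 after thinning was Ddx4 with Mael, at 10.0% against 5.44%, but at E12.5 the same pair stood at 15.3% against 13.9%. Dnd1 with Mael stood at 10.6% against 7.48% at E11.5 and 18% against 17.5% at E12.5, whereas Dnd1 with Sycp3 lay below its product at E11.5, at 3.75% against 6.19%, and above it at E12.5, at 14.9% against 13.1%. These cells share a library and its depth, so the products are a description only.

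Cells with Ddx4 differed from germ cells without it in some of the other genes and not in others. At E11.5, Dazl stood at 408 CPM (381 to 438) in the 107 germ cells with Ddx4 and 277 CPM (246 to 310) in the 80 without, Mael at 60.7 (50.3 to 72.6) and 28.1 CPM (19.0 to 40.2), and Sycp3 at 36.9 (29.0 to 46.4) and 15.0 CPM (8.59 to 24.4). At E12.5 the same 3 genes kept that direction, with Dazl at 831 CPM (810 to 852) in 368 cells and 668 CPM (627 to 712) in 82, Mael at 94.1 (87.1 to 101) and 63.8 CPM (51.5 to 78.3), and Sycp3 at 60.1 (54.6 to 66.1) and 37.5 CPM (28.2 to 48.9). Dnd1 was close between them, at 112 and 112 CPM at E11.5 and 134 and 135 CPM at E12.5, and Nanos3 stood at 56.7 and 56.3 CPM at E11.5 and 39.8 (35.3 to 44.7) and 47.9 CPM (37.3 to 60.6) at E12.5. Of the rule genes, Dppa3 was also higher in cells with Ddx4. It stood at 1147 (1100 to 1195) and 904 CPM (847 to 962) at E11.5, and at 2446 (2410 to 2483) and 2117 CPM (2042 to 2193) at E12.5. Pou5f1 stood at 670 and 589 CPM at E11.5, and its intervals and those of Nanog overlapped at both stages. Germ cells with Ddx4 were also deeper, at a median of 19569 against 15063.5 UMIs at E11.5 and 18957 against 17016 UMIs at E12.5, and the part of depth in these values was not tested.

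The summed levels of Sycp3, Ddx4, Mael and Dazl were higher in the 20 germ cells with Stra8 at E12.5 than in the 430 without it. The intervals leave out the spread between cells, and whether so few cells could differ by it alone was not tested. Sycp3 stood at 110 CPM (78.7 to 150) against 54.0 CPM (49.1 to 59.2), Ddx4 at 187 (145 to 237) against 113 CPM (106 to 121), and Mael at 138 (102 to 182) against 86.9 CPM (80.7 to 93.5). Dazl stood at 920 (824 to 1024) against 799 CPM (780 to 818), while the quartiles of single germ cells of E12.5 were 581 and 999 CPM. Dnd1 at 138 (102 to 182) against 134 CPM (126 to 142) and Nanos3 at 35.8 (19.06 to 61.2) against 41.4 CPM (37.1 to 46.0) overlapped. At least 5 of the 10 genes, Stra8 itself among them, were detected in each of the 20 cells. The median was 6, against 5 over all 450 germ cells of E12.5, but choosing cells by Stra8 gives each of them 1 of the genes. Their median depth was 17513 UMIs against 18670.5 in the rest. Y-linked UMIs were found in 18 of the 20 cells and Xist in none. In the 12 cells with Nanos2, Dazl stood at 881 CPM (768 to 1006) against 802 CPM (782 to 821) in those without it. Sycp3 stood at 84.8 (52.5 to 130) against 55.5 CPM (50.6 to 60.8), and Mael at 125 (85.1 to 178) against 88.0 CPM (81.7 to 94.6). Ddx4 stood at 145 (102 to 201) against 116 CPM (108 to 123). These 4 were thus higher with overlapping intervals, while Dnd1 (125 against 134 CPM) and Nanos3 (28.3 against 41.5 CPM) were lower. The 12 cells held a median of 7 of the 10 genes, Nanos2 itself among them, and 1 cell held both Nanos2 and Stra8.

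Of the other germline genes, the meiosis list moved most. The meiosis list held 20 genes, of which 13 had at least 50 UMIs in germ cells of both stages together: 6 passed a ratio of 2 upward, none downward, and 12 of 13 had a ratio above 1. The median was 0.89 on the log2(CPM + 1) scale, which the medians of the other lists also use. Over all 9035 genes tested, 2.6% passed a ratio of 2 upward, 51.8% had a ratio above 1 and 21.5% an interval wholly above 1, which in the meiosis list held for 9 of 13. Smc1b, a cohesin subunit of meiotic chromosomes, went from 48.7 to 161 CPM, a ratio of 3.31 (2.79 to 3.95). Sycp2, the axial partner of Sycp3, went from 1.31 to 5.57 CPM (ratio 4.23, 1.55 to 16.2), and Meioc, which is needed to stay in meiotic prophase, from 1.64 to 5.33 CPM (ratio 3.25, 1.29 to 10.47). Sycp2 and Meioc had only 4 and 5 UMIs at E11.5, and 48 and 46 at E12.5. Both thus reached the minimum of 50 UMIs through the stage where they were high, under the minimum set for all 9035 genes. The same held for others of the 6, not named here, which had 14 and 45 UMIs at E11.5 and 121 and 302 at E12.5.

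In the list for piRNAs and transposon control, 12 of 18 genes had enough UMIs. All 12 had a ratio above 1, 11 of them with an interval wholly above 1, and the median was 0.63 on the log2(CPM + 1) scale. Against 2.6% of all genes, 3 of the 12 passed a ratio of 2. These were Gtsf1, a piRNA pathway zinc-finger protein (6.90 to 18.4 CPM, ratio 2.67, 1.69 to 4.43), Tdrd7, a tudor-domain protein (2.63 to 6.61 CPM, ratio 2.51, 1.19 to 6.10), and Gpat2, a mitochondrial protein of piRNA biogenesis (19.7 to 40.2 CPM, ratio 2.04, 1.55 to 2.73). Tdrd7 rested on 8 UMIs at E11.5 and 57 at E12.5. Dnmt3l and Tdrd6 had no UMI in germ cells of either stage.

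The remaining lists moved less. Among 16 further RNA-binding or related genes, all with enough UMIs, 10 had a ratio above 1, 6 of them with an interval wholly above 1. Their median was 0.14 on the log2(CPM + 1) scale, and 2 passed a ratio of 2 upward, against 2.6% of all genes. At E12.5, 5 of the 16 were at least 4-fold higher in germ cells than in other cells, against 5.61% of all genes. The 2 were the helicase gene Ddx25 (7.56 to 19.6 CPM, ratio 2.59, 1.67 to 4.20) and Bnc1 (4.60 to 14.3 CPM, ratio 3.10, 1.78 to 5.84), which encodes a zinc-finger protein of the nucleus. Neither was 4-fold higher in germ cells than in other cells, with ratios of 0.555 at E11.5 and 1.37 at E12.5 for Ddx25 and of 0.730 and 2.09 for Bnc1. Rbm46 went from 38.8 to 59.3 CPM (ratio 1.53, 1.25 to 1.88). Of 12 measurable genes of germ cell specification, 4 had a ratio above 1, 3 of them with an interval wholly above 1, none passed a ratio of 2 either way, and the median was -0.14. The transcription factor genes Tfap2c, at 45.0 and 22.8 CPM (ratio 0.507, 0.406 to 0.636), and Sall4, at 158 and 108 CPM (ratio 0.681, 0.609 to 0.761), were lower at E12.5, and Esrrb stood at 18.7 and 13.8 CPM (ratio 0.736, 0.533 to 1.03). Of 9 measurable genes of male germ cell differentiation, 5 had a ratio above 1, 3 of them with an interval wholly above 1, and the median was 0.01. Tex101 passed a ratio of 2 upward (14.5 to 40.5 CPM, ratio 2.80, 2.04 to 3.92), Lefty1, a Nodal antagonist, went from 53.9 to 106 CPM (ratio 1.96, 1.66 to 2.33), and the homeobox gene Rhox6 from 317 to 170 CPM (ratio 0.537, 0.495 to 0.583).

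Across 19 groups of at least 20 cells (germ cells and marker-gated classes of the 4 libraries), the genes whose level was most like the mean profile of the 7 well-counted genes were Rhox6, Hormad1, Tex14, Cpeb1, Uba1y, Cdh1, Stk31, Entpd2, Triml2 and Rbm44. Pearson's r on log2(CPM + 1) ran from 0.963 to 0.974 over 7343 genes ranked, and it rests on the 2 germ cell groups standing apart from the other 17. Their germ cell levels did not move alike between the stages: Tex14, a protein of germ cell bridges, went from 43.1 to 76.1 CPM and Rbm44 from 19.7 to 33.7 CPM, while Cdh1, which encodes E-cadherin, stood at 19.7 and 19.4 CPM.

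The level in other cells set the background, and it was not one fixed fraction of the germ cell level. At E12.5, other cells held 0.190% of the germ cell CPM of Dazl (0.135% to 0.260%), 0.264% of that of Mael (0.0965% to 0.577%) and 0.807% of that of Ddx4 (0.515% to 1.21%). For Sycp3 the fraction was 1.18% (0.682% to 1.91%), for Dnd1 3.42% (2.80% to 4.14%), for Nanos3 9.98% (7.95% to 12.4%) and for Tdrd1 14.3% (7.08% to 27.5%). At E11.5 the fractions ran from 0.282% for Mael (0.0575% to 0.840%) and 0.576% for Dazl (0.417% to 0.775%) to 4.59% for Dnd1 (3.67% to 5.70%), 6.56% for Nanos3 (4.96% to 8.60%) and 9.396% for Tdrd1 (1.95% to 39.6%). The intervals of Dazl and Nanos3 were apart at both stages, and the part of free RNA in these levels was not tested. Read as shares, 1.69% of other cells at E12.5 had a UMI of Dazl, 4.62% of Dnd1 and 4.41% of Nanos3, at a median of 10068.5 UMIs per other cell against 18636.5 per germ cell.

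Within the other cells, the genes were placed differently. Cells with at least 3 of 6 supporting markers (Sox9, Amh, Aard, Ptgds, Inha and Dhh), and more than of any other list, numbered 431 at E11.5 and 589 at E12.5, while cells gated likewise on 6 interstitial markers (among them Pdgfra, Tcf21, Nr2f2 and Snai2) 811 and 1350. Dnd1 stood at 8.27 CPM (6.25 to 10.7) in supporting-gated and 3.47 CPM (2.58 to 4.56) in interstitial-gated cells of E12.5, and at 7.62 (5.47 to 10.3) and 4.03 CPM (2.92 to 5.43) at E11.5. Sycp3 stood at 1.92 (1.02 to 3.28) and 0.204 CPM (0.0421 to 0.596) at E12.5, and at 2.60 (1.42 to 4.37) and 0.469 CPM (0.152 to 1.09) at E11.5. Tdrd1 stood at 1.48 (0.708 to 2.72) and 0.204 CPM (0.0421 to 0.596) at E12.5. For Dazl, both classes were close, at 1.33 (0.608 to 2.52) and 1.70 CPM (1.10 to 2.51) at E12.5. The levels of Dnd1, Sycp3 and Tdrd1 in these classes rest on few UMIs, with 56, 13 and 10 in supporting-gated cells of E12.5.

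At E11.5, Dazl was highest among the other cells that no marker list gated, at 5.89 CPM (3.65 to 9.01) in 541 cells with a median of 4493 UMIs. The 128 other cells with exactly 1 gene of the germ cell rule held 17 of the 45 Dazl UMIs of other cells, at 10.96 CPM (6.38 to 17.5), against 1.40 CPM (0.929 to 2.02) in the 1786 cells with none. At E12.5 the 166 such cells held 2 of 39 UMIs, and their Dazl level of 1.00 CPM (0.121 to 3.61) did not stand above the 1.57 CPM (1.11 to 2.17) of cells with none.

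The 9 germ cells of E10.5 had 13117 to 17584 UMIs each, too few for more than a description. Dnd1 was detected in all 9, with 1, 2, 2, 3, 3, 4, 5, 6 and 6 UMIs, or 232 CPM (158 to 327). Dazl had 10 UMIs in 6 of the cells, or 72.4 CPM (34.7 to 133), Nanos3 4 UMIs in 3 cells, Piwil2 3 UMIs in 2 cells and Ddx4 2 UMIs in 2 cells. Mael, Sycp3, Tdrd1, Stra8 and Nanos2 had no UMI, and 0 of 9 cells allows a share of up to 33.3%. From E10.5 to E11.5 the Dazl level was 5.01-fold higher (2.71 to 10.47) and the Dnd1 level 0.484 of that at E10.5 (0.336 to 0.719). Dnd1 therefore stood above Dazl at E10.5 and below it at E11.5 and E12.5.

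In the D6 library, the 2 cells that met the germ cell rule had 10733 and 5124 UMIs. They held 19 and 1 UMIs of Stra8, 1 and 2 of Dazl, 0 and 3 of Sycp3 and 0 and 1 of Mael, and no UMI of Ddx4, Dnd1 or Nanos3. At 5000 UMIs per cell these 3 genes were each missed in more than 50% of germ cells at E11.5 and at E12.5. At E10.5, Dnd1 was detected in 77.8% of the 9 germ cells at that depth. How often all 3 were missed in the same germ cell was not computed, so no conclusion is drawn from their absence from the second cell. No share was computed at the depth of the first cell. With all UMIs, at higher median depths, Dnd1 was detected in 70.1% of germ cells at E11.5 and 86.7% at E12.5. None of the other 2283 cells of D6 had a UMI of Stra8, which allows up to 0.131%. These 2 cells also held 13 and 39 UMIs of Dppa5a, against 17 UMIs in all other cells of D6 together, but no UMI of the germ cell marker Dppa4. Their place under the rule rested on 3 UMIs in the first, 1 of Pou5f1 and 2 of Nanog, and on 2 UMIs in the second, 1 of Pou5f1 and 1 of Dppa3.

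Nanos3 was the germline gene with the highest level in other cells of D6, at 210 UMIs and 17.7 CPM (15.4 to 20.2), with a UMI in 8.41% of cells and 6.92% of the 968 cells that could be thinned. That was 10.99-fold the level in other cells of E10.5 (8.08 to 15.2), 4.76-fold that of E11.5 (3.67 to 6.24) and 4.30-fold that of E12.5 (3.38 to 5.49). By class it stood at 34.1 CPM (20.9 to 52.7) in 87 supporting-gated cells, 14.9 CPM (11.7 to 18.7) in 915 interstitial-gated cells and 18.6 CPM (15.3 to 22.4) in 1218 ungated cells. Ddx4 stood at 3.11 CPM (2.19 to 4.29) in other cells of D6, against 0.939 CPM at E12.5, 0.556 at E11.5 and 0.216 at E10.5. Dnd1 stood at 5.63 CPM (4.37 to 7.16), which was 4.45-fold the E10.5 level (2.97 to 6.73), 1.10-fold the E11.5 level (0.797 to 1.497) and 1.23-fold the E12.5 level (0.897 to 1.68). Dazl stood at 0.421 CPM (0.137 to 0.981), below the 2.08 CPM of E11.5 and 1.53 CPM of E12.5, and at 3.40 times the 0.124 CPM of E10.5, with an interval of that ratio from 0.732 to 17.15. The other cells of D6 had a median of 4604 UMIs.

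**Figure D5:**
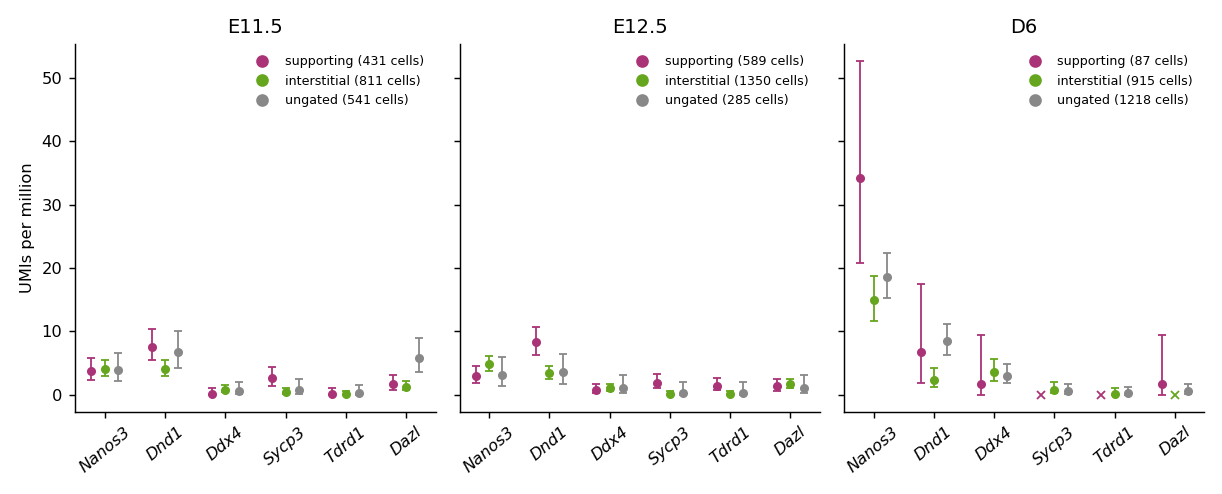
Level of 6 germline genes in cells outside the germ cell rule, in CPM on a linear axis with exact 95% counting intervals, for supporting-gated (purple), interstitial-gated (green) and ungated (grey) cells, by library (both later embryonic stages and D6). Crosses at 0 mark classes with 0 UMIs; Nanos3 stands at 14.9 to 34.1 CPM in D6, above its level in the same classes of both embryonic stages.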

How the data were processed

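Single-cell RNA-seq libraries of XY gonads from 3 embryonic days and of D6 ESC-derived gonadal cells were used, 1 library per condition. The authors mapped reads to mm10 and deposited UMI counts per gene and barcode, not normalized. The methods and the submitters' processing notes name Cell Ranger 3.0.2, while the matrix headers name 6.0.0. The deposited matrices held 2441 to 4473 barcodes and 13965107 to 42242194 UMIs each. Doublets were not removed in the main results, and Scrublet (scanpy 1.11.5) marked 35 of 2101 cells at E11.5 and 27 of 2764 at E12.5, with 6 and 7 germ cells among them.

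Cells were kept between 1000 and 4000 genes and under 10% mitochondrial UMIs at E10.5, 500 and 5000 genes and 20% at E11.5, 2000 and 5000 genes and 8% at E12.5, and 1000 and 4000 genes and 12% at D6, as the methods state. Groups of cells were summed. CPM had exact Poisson intervals, shares exact Clopper-Pearson intervals, and ratios exact conditional binomial intervals, all at 95% and covering counting error only. A count of 0 was given the limit that 3 counts allow. Thinning drew 5000 UMIs per cell without replacement. Genes entered a comparison of all genes with at least 50 UMIs over both groups. With 1 library per condition no p-value was computed.

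All 10 genes and the 3 rule genes were named. From each other list, at most 3 genes were named that had the largest absolute log2 ratio among genes with at least 50 UMIs, and 10 genes were named by likeness to the mean profile among genes with at least 100 UMIs in germ cells. The genes and lists were chosen with earlier results of these data known, and the sex-linked genes, the germ cells by Stra8, the single-cell spread and the shares of genes with intervals above 1 were examined after the data were seen. The ratio script was tested on simulated counts of 9035 genes for E12.5 against E11.5 germ cells, where the interval held the true ratio for 96.0% of genes and all 200 changed genes kept their direction. Some genes, including markers of a gate, are not reported here by name. Upstream sequences came from RefSeq on GRCm38.p6. Alternatives to the germ cell rule, the limits on cells, doublets, scaling, background and UMI minimum were computed. Python 3.11.15, numpy 2.4.6, scipy 1.17.1 and pandas 2.3.3 were used.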

Additional observations from a re-analysis of the deposited data

Results flagged for a closer look

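The results here came from cells outside the comparison of E11.5 with E12.5 germ cells, and each stood above the level in the cells used as background.

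The 2 cells of D6 that met the germ cell rule held 20 Stra8 UMIs together, while the other 2283 cells of D6 held none. Nanos3 stood at 17.7 CPM in the other cells of D6, above its 1.61 to 4.11 CPM in other cells of the embryonic libraries. Ddx4 stood at 3.11 CPM in the same D6 cells, above 0.216 to 0.939 CPM in the embryonic ones. The D6 library was made with another kit and from another strain, and the part of these in the values was not tested. Dnd1 stood at 232 CPM in the 9 germ cells of E10.5, above 1.27 CPM in the other cells of that library.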

How the results depend on the processing

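No direction reversed: the 7 log2 ratios between the stages kept their sign under every alternative that recomputed them, with Nanos3 lower and the other 6 genes higher. Calling with 2 UMIs, thinning, the minimum of 10 UMIs and other cells with no rule gene left these ratios as they were. Of 450 values of single genes, 363 stayed within the counting interval of the value reported. With 1 rule gene 32 of 47 fell outside it, and 17 of 20 did so with at least 2 UMIs and likewise after thinning. With all 3 rule genes required, 78 germ cells remained at E11.5 and 214 at E12.5, of which 67.9% and 64.1% at E11.5 held at least 4 genes and both Dazl and Ddx4, and 3.41% of all genes passed 4-fold at E12.5 and 1.502% passed 2-fold downward between stages. With 1 rule gene, E11.5 had 315 germ cells, the medians were 2 and 4 genes per cell at E11.5 and E12.5, shares with at least 4 genes were 33.3% and 64.8%, those with Dazl and Ddx4 32.7% and 59.7%, and 4 genes passed 2-fold. With at least 2 UMIs to call a gene, the medians were 2 and 3, the shares with at least 4 genes 20.3% and 41.6%, and those with Dazl and Ddx4 27.3% and 57.3%. After thinning these were 2 and 3, 15.6% and 26.4%, and 26.9% and 38.2%. At E11.5 the share with at least 4 genes was 64.0% under common cell limits and 65.0% in cells of at least 5000 UMIs, a limit chosen after the depths were seen. The number of genes past 2-fold was 2 under common limits and under no limits, where Stra8 reached 50 UMIs, 2 under TMM scaling (Dazl and Sycp3) and 3 by the mean of cell CPM (Dazl, Mael and Sycp3). With a minimum of 10 UMIs, 6.52% of genes passed 4-fold at E11.5, 5.13% passed 2-fold upward and 7.44% downward. Without germ cells holding 2 somatic markers of a list 1.84% passed downward. With other cells subtracted 17.3% passed upward and 13.7% downward among genes with a remainder at both stages, since subtraction leaves small remainders for genes that both groups share. Removing Scrublet doublets, or using other cells with no rule gene (an alternative also chosen after the data were seen), moved none of these summaries. No paired analysis was possible because each condition had 1 library. Where no construction is named, the cause was not tested. Ratios of Stra8, Nanos2 and Tdrd1 are limited by depth, with 46, 13 and 33 UMIs at E12.5.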

Other observations

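The D6 cells that met the germ cell rule also held genes that were rare or absent in the other cells of that library. Summed over both cells, Alpl, which encodes the tissue-nonspecific alkaline phosphatase of pluripotent and primordial germ cells, had 17 UMIs, Lefty2, a Nodal antagonist, 5 UMIs and Esx1, a homeobox gene of the placenta, 5 UMIs. In the other 2283 cells of D6 the same genes had 22, 0 and 1 UMIs. Utf1, a chromatin factor of pluripotent cells, had 6 UMIs in these 2 cells and 40 in 29 other cells. These genes were chosen after their values were seen.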
